A study of Mus musculus with 10 samples.

Results

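Transcripts of 10 genes that mark dendritic cells, resident macrophages or both were followed in cardiac endothelial cell (EC) preparations of mice on a control or a ketogenic diet. They are Mgl2, Clec10a, Cd209a, Flt3, Itgax, Ccr2, Retnla, Mrc1, Folr2 and Cbr2, which are 10 of the 46983 genes in the deposited tables. They were chosen by name from earlier results on the same mice, in which Mgl2 had the largest rise among the genes listed. Their diet differences are therefore given as a description, with fold changes and errors but without a test. Of the 10 genes, 6 were grouped by background knowledge as dendritic cell genes (Mgl2, Clec10a, Cd209a, Flt3, Itgax, Ccr2) and 3 as resident macrophage genes (Mrc1, Folr2, Cbr2), while Retnla is expressed by both kinds of cell.

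Male C57BL/6J mice were given a control diet (D12359) or a ketogenic diet (D17011501) for 14 days, 5 mice on each diet, and every mouse gave 1 library. Most of the energy in the control diet came from carbohydrate, whereas the ketogenic diet was high in fat and nearly free of carbohydrate at a similar protein content. Mice were 8 weeks old when they were assigned to a diet, and both groups first had 2 days with their diet beside standard chow. The ECs had been collected from the heart with beads against CD31, an adhesion molecule that ECs carry in large amounts and that leukocytes carry as well, and their RNA was amplified with a SMART-Seq v4 kit, which does not record the strand.

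Dendritic cells take up antigen and present it to T cells, and those of the heart arise partly from bone marrow precursors that depend on the receptor FLT3 and partly from blood monocytes that enter tissue through the chemokine receptor CCR2. Resident cardiac macrophages clear debris, and many of them maintain themselves in the tissue and carry scavenger receptors such as CD206, the product of Mrc1. Of the 10 genes, Mgl2, Clec10a, Cd209a and Mrc1 encode C-type lectins, receptors that bind sugars on microbes and on glycoproteins. No gene of either class is restricted to 1 cell type.

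The reads counted on genes came to 10885154 to 12206734 in the control mice and 11108020 to 12710861 in the ketogenic mice. The EC label was checked with Pecam1, which encodes CD31, at 52.9 to 62.1 RPKM (reads per gene length and library size), and with Cdh5, the gene of VE-cadherin, at 149 to 170 RPKM. No member exceeded 14.8 RPKM in any mouse. Members therefore lay far below the EC genes, and 1 mouse could carry as few as 0 to 2 reads of a member. In such bulk samples, fewer cells of a type and less RNA per cell cannot be told apart. Control mouse 1 stood apart by its macrophage genes and ketogenic mouse 4 by its monocyte genes, as described with those lists, and the 8 members that passed the filter on low counts are also given without both mice.

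Mgl2 and Clec10a lie on chromosome 11 of GRCm38 in the same orientation, Mgl2 at chr11:70130329-70137550 and Clec10a at chr11:70156197-70170834, with 18646 bases between them. Their coding sequences, of 1146 and 927 bases, aligned over 913 bases with 825 identical (90.4%). Because the reads were 50 bases long, their likeness bears on how reads could be assigned to either gene. The longest identical run was 183 bases, and 76.0% of the 667 ungapped windows of 50 bases differed at 0 to 2 bases. Of all 50-base windows of the annotated Mgl2 transcripts, 13.1% also occurred exactly in another gene, 270 of the 289 windows in Clec10a. How reads with several matches were counted is not given in the sources used here. A 120-base coding stretch that Mgl2 (exons 7 and 8, chr11:70136337-70136559 with the intron between them) and Clec10a (exons 6 and 7, chr11:70169822-70170044) share without a difference shows where a read could not be told from the other gene:
Mgl2 and Clec10a, identical stretch: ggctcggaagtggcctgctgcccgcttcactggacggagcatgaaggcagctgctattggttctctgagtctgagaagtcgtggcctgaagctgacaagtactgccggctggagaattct
Only 120-base stretches aligned without a gap were compared, which leaves out the regions beside gaps. The least alike, in Mgl2 exons 8 and 9 (chr11:70136584-70136780) and Clec10a exons 7 to 9 (chr11:70170069-70170421), held 8 differing bases, shown in capitals:
Mgl2, least alike stretch: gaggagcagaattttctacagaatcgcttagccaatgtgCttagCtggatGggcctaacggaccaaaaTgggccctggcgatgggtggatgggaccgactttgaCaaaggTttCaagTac
Clec10a, least alike stretch: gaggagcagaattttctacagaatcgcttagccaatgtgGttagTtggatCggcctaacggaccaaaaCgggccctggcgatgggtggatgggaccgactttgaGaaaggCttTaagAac

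Mgl2 encodes CD301b, a galactose-binding lectin of dermal and other type 2 dendritic cells and of some macrophages. It had 7, 7, 12, 2 and 4 reads in control mice 1 to 5 and 52, 39, 51, 76 and 34 reads in ketogenic mice 1 to 5. All 5 ketogenic mice lay above the highest control mouse, and the lowest of them had 34 reads against 12. The normalized count was 6.56 ± 3.93 (SD, n = 5) on the control diet and 49.4 ± 15.9 (SD, n = 5) on the ketogenic diet, and the log2 fold change was 2.89 (standard error 0.373), or 7.41-fold. The control mice held 32 reads together (exact Poisson 95% interval 21.9 to 45.2) and the ketogenic mice 252 (222 to 285), intervals that cover counting error only. Without control mouse 1 and ketogenic mouse 4, the log2 fold change was 2.75 (standard error 0.416). Only 1 of 5 control mice reached the level that the filter on low counts required (0.855 CPM, reads scaled to library size, in at least 5 mice), so that Mgl2 entered the fit through its ketogenic mice.

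Clec10a, the neighbour that encodes the related lectin CD301a, had 0, 1, 9, 3 and 4 reads in control mice 1 to 5 and 9, 3, 18, 8 and 26 reads in ketogenic mice 1 to 5. The diets overlapped, with 2 of 5 ketogenic mice above the highest control mouse. Its mean normalized count was 3.49 ± 3.64 on the control diet and 12.2 ± 8.29 on the ketogenic diet. Clec10a did not pass the filter on low counts, and in a fit without that filter its log2 fold change was 1.79 (standard error 0.669). The mice with most Clec10a (ketogenic 5 and 3) were not the mouse with most Mgl2 (ketogenic 4), and after removal of the diet means the log2 CPM of the neighbours had r = −0.03 over the 10 mice.

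Cd209a encodes a mouse relative of DC-SIGN, a lectin found on dendritic cells that arise from monocytes. It had 24, 6, 17, 21 and 16 reads in control mice 1 to 5 and 74, 51, 47, 129 and 59 reads in ketogenic mice 1 to 5. The diets did not overlap, and ketogenic mouse 4 was again the highest. After normalization the count was 17.5 ± 7.63 on the control diet and 70.3 ± 32.3 on the ketogenic diet, and the log2 fold change was 2.01 (standard error 0.370), or 4.03-fold. It was 1.88 (standard error 0.337) without control mouse 1 and ketogenic mouse 4. No 50-base window of Cd209a (chr8:3743397-3748984, minus strand) occurred in another annotated transcript.

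Flt3, the receptor of the growth factor on which dendritic cell precursors depend, had 13, 2, 8, 4 and 4 reads in control mice 1 to 5 and 9, 16, 8, 6 and 9 reads in ketogenic mice 1 to 5. The diets overlapped, and 1 of 5 ketogenic mice lay above the highest control mouse. Mean normalized counts of 6.49 ± 4.81 on the control and 9.50 ± 4.20 on the ketogenic diet resulted. Flt3 also remained below the filter, and its log2 fold change without the filter was 0.55 (standard error 0.502). The gene overlaps Gm26597 on the other strand, whose reads cannot be told apart from its own in libraries without strand.

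Itgax, which encodes the integrin chain CD11c, had 22, 0, 32, 4 and 15 reads in control mice 1 to 5 and 17, 20, 25, 65 and 11 reads in ketogenic mice 1 to 5. Ketogenic mouse 4 was the only one above the highest control mouse, and the diets overlapped widely. The normalized count was 15.2 ± 13.7 on the control diet and 27.1 ± 20.9 on the ketogenic diet, and the log2 fold change was 0.83 (standard error 0.7097), and 0.46 (standard error 0.766) without control mouse 1 and ketogenic mouse 4. Without ketogenic mouse 4 alone it was 0.25 (standard error 0.706). With the level of 12 cardiomyocyte genes in each mouse as a covariate the value was −0.23 (standard error 0.809). With 14 pan-leukocyte genes as the covariate instead it was 2.15 (standard error 0.716). Of its 50-base windows, 8.02% also occurred in Itgad.

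Ccr2, the receptor through which monocytes leave the blood, had 58, 20, 76, 38 and 37 reads in control mice 1 to 5 and 82, 78, 70, 235 and 91 reads in ketogenic mice 1 to 5. Only ketogenic mouse 3 lay below the highest control mouse, and ketogenic mouse 4 stood far above all others. Normalized counts averaged 47.5 ± 23.3 on the control diet and 108 ± 67.3 on the ketogenic diet, and the log2 fold change was 1.19 (standard error 0.407). Leaving out ketogenic mouse 4 alone lowered the log2 fold change to 0.73 (standard error 0.315), and leaving out control mouse 1 with it gave 0.85 (standard error 0.335).

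Retnla encodes RELM-alpha, a secreted protein that interleukin-4 and interleukin-13 induce in macrophages and dendritic cells. It had 11, 18, 20, 23 and 2 reads in control mice 1 to 5 and 34, 98, 34, 34 and 76 reads in ketogenic mice 1 to 5. The diets did not overlap, and the highest mice, ketogenic 2 and 5, were those with the fewest Mgl2 reads on that diet. The normalized count was 15.2 ± 8.66 on the control diet and 54.3 ± 31.1 on the ketogenic diet, and the log2 fold change was 1.83 (standard error 0.487), or 3.55-fold. It was 1.89 (standard error 0.549) without control mouse 1 and ketogenic mouse 4.

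Mrc1 encodes CD206, the mannose receptor of resident macrophages and of some ECs. It had 88, 30, 91, 89 and 95 reads in control mice 1 to 5 and 68, 93, 164, 139 and 51 reads in ketogenic mice 1 to 5. Control mouse 2 was the lowest of all, 3 of 5 ketogenic mice lay above the highest control mouse by normalized count, and the diets overlapped. Normalized counts averaged 81.4 ± 29.5 on the control diet and 101 ± 47.2 on the ketogenic diet, and the log2 fold change was 0.32 (standard error 0.365). It was 0.25 (standard error 0.425) without control mouse 1 and ketogenic mouse 4, 0.094 without ketogenic mouse 3 and 0.10 without control mouse 2. With the cardiomyocyte genes as a covariate the value was −0.53 (standard error 0.335), and with the pan-leukocyte genes 0.71 (standard error 0.435).

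Folr2, which encodes folate receptor beta of resident macrophages, had 3, 10, 16, 6 and 25 reads in control mice 1 to 5 and 15, 15, 18, 22 and 15 reads in ketogenic mice 1 to 5. Every ketogenic mouse lay within the range of the control mice by normalized count. The log2 fold change was 0.44 (standard error 0.425), from 12.2 ± 8.78 to 16.6 ± 3.03, and 0.10 (standard error 0.402) without control mouse 1 and ketogenic mouse 4. Without control mouse 5 it was 0.88 (standard error 0.397). Its counts are uncertain because 52.6% of its 50-base windows also occurred in Gm10602, which overlaps it on the other strand together with Gm45319.

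Cbr2 encodes carbonyl reductase 2, an enzyme abundant in lung and found in resident macrophages. It had 78, 37, 39, 63 and 43 reads in control mice 1 to 5 and 31, 45, 32, 40 and 32 reads in ketogenic mice 1 to 5. It was the 1 member of the 8 that passed the filter with a lower mean on the ketogenic diet, where 3 of 5 mice lay below the lowest control mouse. The normalized count was 53.9 ± 20.7 on the control diet and 35.4 ± 7.51 on the ketogenic diet, and the log2 fold change was −0.60 (standard error 0.259), and −0.42 (standard error 0.258) without control mouse 1 and ketogenic mouse 4. Of its 50-base windows, 12.1% also occurred in Gm11771.

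**Figure D1:**
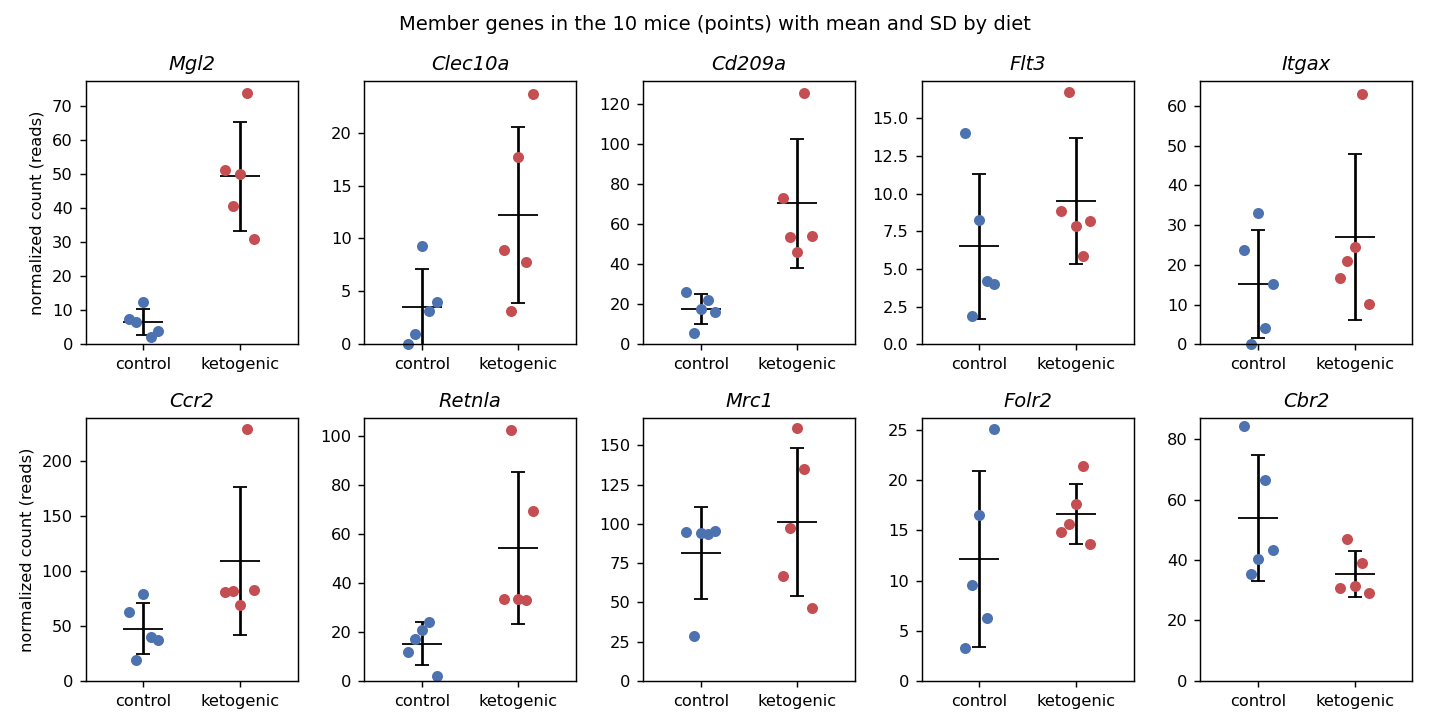
Normalized count (vertical axes, in reads, from 0) of each member in the 5 control mice (blue) and the 5 ketogenic mice (red), with horizontal marks at the mean and bars of ± 1 SD. The diets are separate for Mgl2, Cd209a and Retnla and overlap for the other 7 genes, and ketogenic mouse 4 is the single high point of Itgax and Ccr2.

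**Figure D2:**
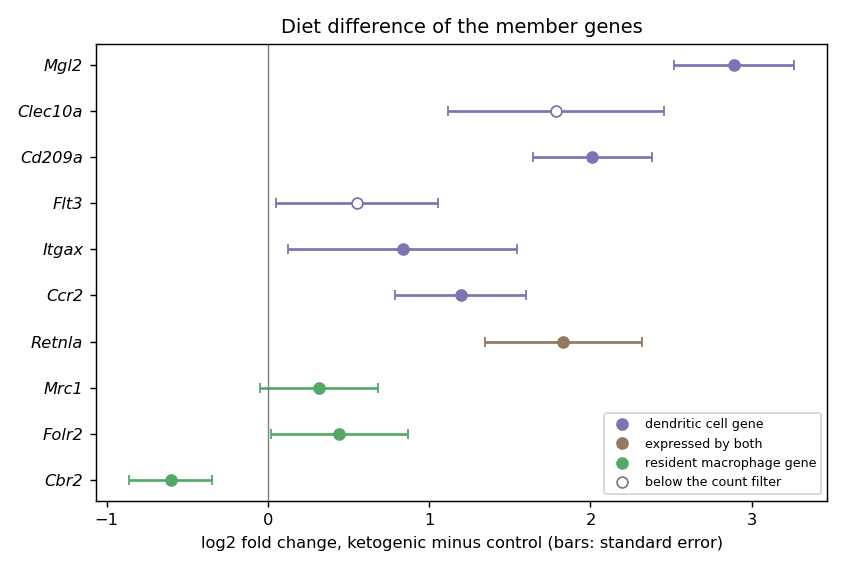
Log2 fold change of the ketogenic over the control diet (horizontal axis) of each member with its standard error as a bar, coloured by gene class. Values run from −0.60 for Cbr2 to 2.89 for Mgl2, and the open points, Clec10a and Flt3, come from a fit without the filter on low counts.

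Of the 10 members, 8 passed the filter, 7 with a higher and 1 with a lower mean on the ketogenic diet, and their median log2 fold change was 1.01. Of these 8, Mgl2, Cd209a, Itgax, Retnla and Folr2 reached the filter level in all 5 ketogenic mice but in 1 to 4 control mice. They entered the fit through the ketogenic mice, so the filter favoured members higher on that diet. Over all 15949 genes tested the median was −0.01, and 48.6% of values were positive. Normalized counts of 3 members (Mgl2, Cd209a and Retnla) did not overlap between the diets and were higher on the ketogenic diet, while 0 were lower without overlap. The same held for 2.40% of all tested genes in the higher and 1.94% in the lower direction. Because the members were selected on this contrast, nothing is read from these counts.

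The level of the genes among themselves was compared per length, as deposited RPKM. On the control diet Retnla (2.168 ± 1.23 RPKM) and Cbr2 (1.96 ± 0.746 RPKM) were the highest. Cd209a (1.005 ± 0.435 RPKM), Folr2 (0.964 ± 0.698 RPKM) and Mrc1 (0.933 ± 0.337 RPKM) followed. Below them stood Ccr2 (0.289 ± 0.142 RPKM), Itgax (0.237 ± 0.213 RPKM), Mgl2 (0.130 ± 0.0781 RPKM), Flt3 (0.0728 ± 0.0538 RPKM) and Clec10a (0.0477 ± 0.0498 RPKM). The ranges of every pair of neighbours in this order overlapped, although Cbr2 lay above Cd209a, and Mrc1 above Ccr2, within each of the 5 mice.

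On the ketogenic diet the order was Retnla (7.83 ± 4.48 RPKM), Cd209a (4.08 ± 1.88 RPKM), Folr2 (1.33 ± 0.242 RPKM), Cbr2 (1.30 ± 0.277 RPKM) and Mrc1 (1.17 ± 0.546 RPKM). Mgl2 (0.988 ± 0.319 RPKM), Ccr2 (0.666 ± 0.414 RPKM), Itgax (0.426 ± 0.329 RPKM), Clec10a (0.169 ± 0.114 RPKM) and Flt3 (0.108 ± 0.0475 RPKM) came after them. Cd209a and Folr2 were the only neighbours without overlap. Mgl2 moved from rank 8 to rank 6 and Cd209a from rank 3 to rank 2. These levels depend on the gene lengths behind the RPKM values, which for Mgl2 came to 4307 bases while its longest annotated transcript has 1635.

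Dendritic cell genes were then set against resident macrophage genes within each mouse. The mean log2 CPM of the 6 dendritic cell genes minus that of the 3 macrophage genes was −1.65 ± 0.525 (SD, n = 5) on the control diet and −0.32 ± 0.304 (SD, n = 5) on the ketogenic diet. Control mice ranged from −2.07 to −0.99 and ketogenic mice from −0.68 to −0.03, without overlap. The difference between the diets was 1.34 on the log2 scale, and 1.40 without control mouse 1 and ketogenic mouse 4. The dendritic cell genes averaged 0.00 log2 CPM on the control and 1.47 on the ketogenic diet, and the macrophage genes 1.65 and 1.78. These classes hold genes chosen on this contrast. The other 17 tested dendritic cell genes, listed apart from them, had a median log2 fold change of −0.17 with 12 negative values, and the other 22 resident macrophage genes had a median of −0.45. Both lists hold genes with far more reads than any member. Ccr7 and Zbtb46 had mean normalized counts of 1357 and 1173 on the control diet, and Mertk and Lyve1 2407 and 2114. Which cells gave these reads was not tested. Mgl2 reads per Mrc1 read were 0.102 ± 0.0845 on the control diet and 0.542 ± 0.183 on the ketogenic diet.

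**Figure D3:**
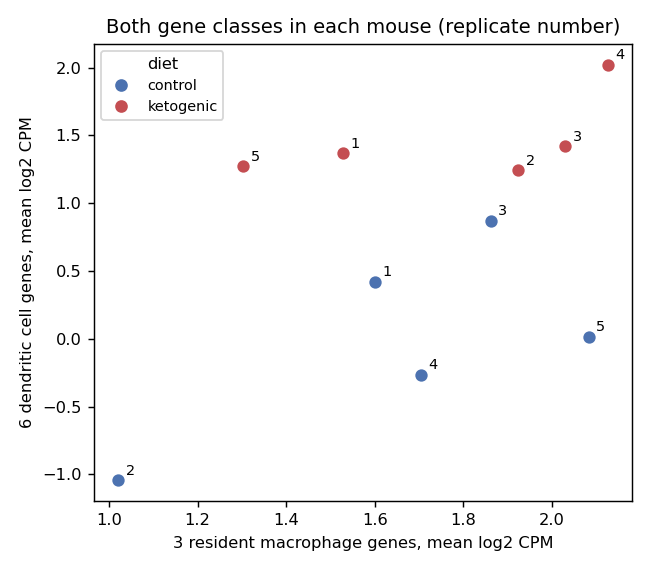
Mean log2 CPM of the 3 resident macrophage genes (horizontal axis) and of the 6 dendritic cell genes (vertical axis) in each mouse, coloured by diet and labelled with its replicate number. The ketogenic mice lie between 1.24 and 2.02 on the vertical axis and the control mice between −1.04 and 0.87, while their horizontal ranges, 1.30 to 2.13 and 1.02 to 2.08, overlap. The genes were chosen on this contrast, and the other 17 dendritic cell genes had a median log2 fold change of −0.17. Which cells gave the reads of those 17 was not tested.

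Members were also related to the reads of 14 pan-leukocyte genes, among them Ptprc, which encodes CD45. These genes held 15887, 8639, 11622, 9792 and 9104 reads in control mice 1 to 5 and 8555, 6731, 7493, 9965 and 8204 reads in ketogenic mice 1 to 5. Mgl2 came to 0.585 ± 0.331 reads per 1000 pan-leukocyte reads on the control diet and 6.09 ± 1.30 on the ketogenic diet, with the highest control mouse at 1.03 and the lowest ketogenic mouse at 4.14. Cd209a came to 1.51 ± 0.532 and 8.53 ± 2.61, Retnla to 1.41 ± 0.917 and 7.15 ± 4.75, and Ccr2 to 4.09 ± 1.53 and 13.04 ± 5.97, also without overlap. On this scale Mrc1 (7.27 ± 2.79 and 12.8 ± 6.16) and Cbr2 (4.74 ± 1.12 and 4.50 ± 1.24) overlapped between the diets. Per library, Mgl2, Cd209a and Retnla did not overlap either, whereas Ccr2 did. The pan-leukocyte reads were themselves lower on average on the ketogenic diet, which raises these ratios there. Nothing further is therefore read from this scale.

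**Figure D4:**
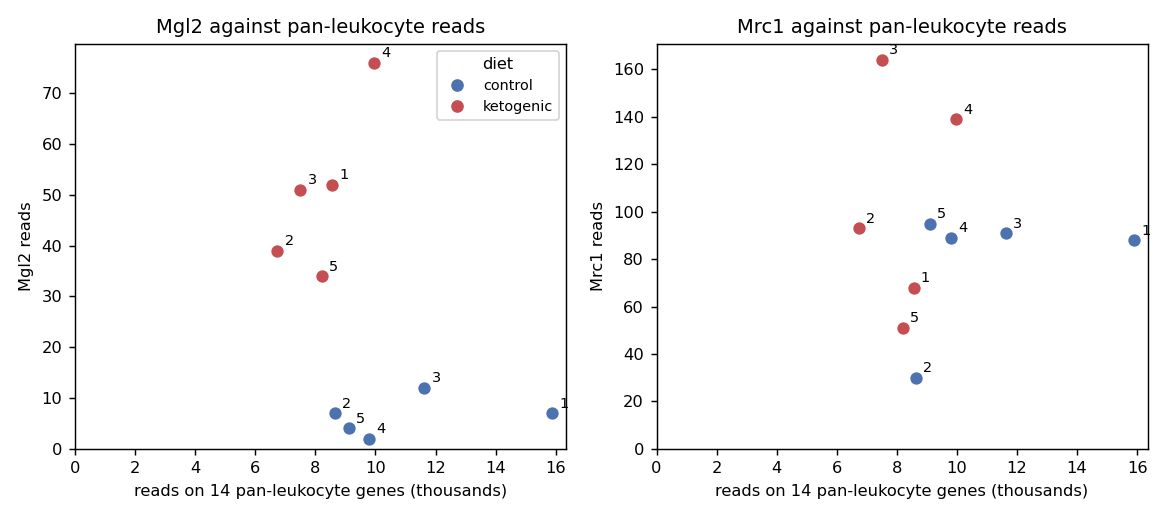
Reads of Mgl2 (left) and Mrc1 (right) against the reads of 14 pan-leukocyte genes in units of 1000, 1 point per mouse, coloured by diet and labelled with the replicate number, all axes from 0. Mgl2 separates the diets at 34 to 76 against 2 to 12 reads, whereas Mrc1 overlaps and control mouse 1 has the most pan-leukocyte reads, 15887.

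Covariation among the members was described as Pearson's r of log2 CPM after the diet means had been removed, over 10 mice, with no test. The points share library and depth. Ccr2 went with Itgax (r = 0.86) and with Cd209a (r = 0.85), and Itgax with Mrc1 (r = 0.78). Control mouse 2 was the lowest of the 10 mice for each of these genes. It had 0 reads of Itgax, where log2 CPM is set by the added prior count. Ketogenic mouse 4 was the highest for Ccr2, Itgax and Cd209a. No r is given without these mice. Mgl2 reached r = 0.55 with Itgax and 0.53 with Ccr2, but 0.16 with Cd209a. Folr2 and Cbr2, both macrophage genes, ran opposite to each other (r = −0.62). The median r was 0.36 over the 15 dendritic pairs, 0.17 over the 3 macrophage pairs and 0.30 over the 18 pairs between the classes.

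**Figure D5:**
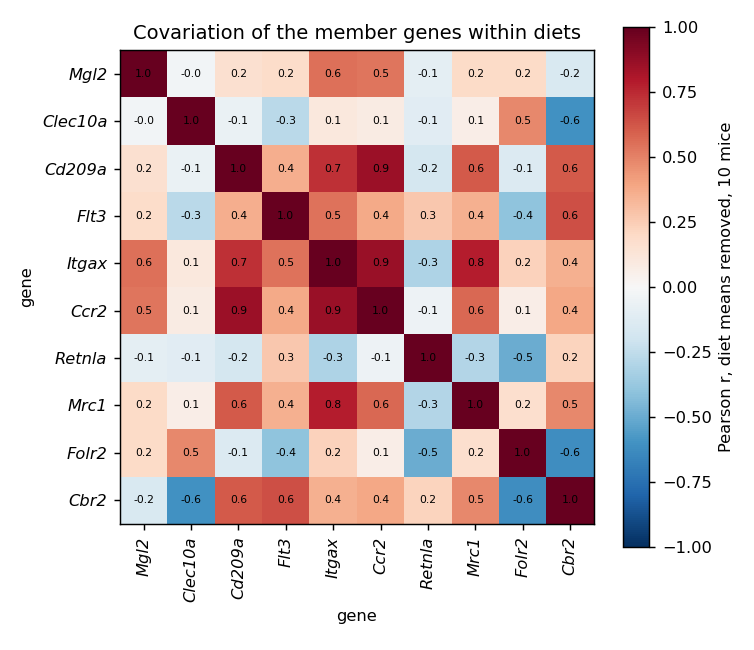
Pearson's r of log2 CPM between each pair of members over 10 mice after removal of the diet means, from −1 (blue) to 1 (red). Ccr2, Itgax and Cd209a form the reddest block, up to 0.86, and Folr2 with Cbr2 is the bluest cell, at −0.62.

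Genes most like a member within the diets were named by rank among about 14311 genes with a mean of at least 20 reads. For Mgl2 they were Col6a3 and Zbed3 (both r = 0.93), Kmt5b (0.93), Pkd2 (0.92) and Ccdc77 (0.92). For Clec10a they were Rfc2 (0.95), Zkscan1 (0.95), Tmem175 (0.93), Ppie (0.93) and Aven (0.92). For Mrc1 they were Pla2g7 (0.95), Col4a4 (0.94), Ggta1 (0.94), Dpep1 (0.94) and Snx17 (0.93). These are the highest of about that many values for each gene, and none of the 15 is a member.

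Other genes of the same cell types, in lists without the members, were tested with edgeR's quasi-likelihood test and Benjamini-Hochberg adjustment over all genes. At an adjusted p under 0.05, 0.809% of all tested genes rose and 0.527% fell on the ketogenic diet. An unadjusted edgeR p under 0.05 was found for 2844 of the 15949 tested genes, both directions together. By the DESeq2 Wald test, 446 of 15416 genes were higher and 349 lower at an adjusted p under 0.05. The counts below are to be read beside these. Of 17 tested dendritic cell genes, 0 passed in either direction by edgeR, and at an unadjusted p under 0.05 there were 2 higher and 6 lower. The DESeq2 Wald test, run as an alternative, gave 0 higher and 2 lower genes, Ccr7 and H2-DMb2. Their median log2 fold change was −0.17, with 5 positive and 12 negative values. Tnip3 had 1.20 (standard error 0.512, adjusted p = 0.244) and Cd7, a surface protein of T and NK cells, had −0.87 (standard error 0.340, adjusted p = 0.208). Clec9a, a lectin of type 1 dendritic cells, had 227 to 322 reads on the control and 238 to 365 on the ketogenic diet. The summed normalized count of this list was 5013 to 6207 on the control and 5040 to 5661 on the ketogenic diet. Which cells gave the reads of this list was not tested.

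Of 22 tested resident macrophage genes, 0 passed by edgeR, with 0 higher and 8 lower at an unadjusted p under 0.05, and their median was −0.45. DESeq2 gave 0 higher and 2 lower, F13a1 and Pf4. Adgre1, which encodes the macrophage antigen F4/80, had −2.63 (standard error 0.963, adjusted p = 0.183), and Fcrls, an Fc receptor-like gene, had −2.44 (standard error 1.04, adjusted p = 0.244). Control mouse 1 held 2198 reads of Adgre1, while the other control mice held 24 to 609 and the ketogenic mice 30 to 247. It was also the highest for Fcrls (912 reads) and for the complement gene C1qb (1137 reads). The summed normalized count of the list was 10896 to 18807 on the control diet, 12502 at most without control mouse 1, and 9999 to 12164 on the ketogenic diet. Mertk, Lyve1 and Gas6 had its highest means on the control diet, at 2407, 2114 and 2101. Which cells gave the reads of this list, F13a1 and Pf4 included, was not tested. Without control mouse 1, the values were −1.12 for Adgre1 (standard error 0.722) and −0.44 for Fcrls (standard error 0.711). Among the members, the same mouse had the most Cbr2 of all 10 mice (78 reads) and the fewest Folr2 (3 reads), with 88 reads of Mrc1. Without it, Cbr2 had −0.39 (standard error 0.234) and Folr2 0.21 (standard error 0.374).

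Of 12 tested monocyte genes, 0 passed by edgeR, with 0 higher and 1 lower at an unadjusted p under 0.05, also 0 by DESeq2, and the median was −0.10. Their summed normalized count reached 1912 in ketogenic mouse 4 and 1084 at most in the other ketogenic mice, against 949 to 2115 on the control diet. The mouse with most Mgl2, Cd209a, Ccr2 and Itgax reads thus also had the most monocyte reads of its diet. Control mouse 3 was high for monocyte genes as well, with 147 reads of Cd300e. It had the most Mgl2 (12), Ccr2 (76) and Itgax (32) reads of the control mice. For Cd209a it had 17 reads, against 24 in control mouse 1. Whether member and monocyte reads are linked was not tested. Plac8 had −0.60 (standard error 0.236, adjusted p = 0.210) and Cd300e −0.34 (standard error 0.493, adjusted p = 0.761).

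Of 13 tested genes for other C-type lectin receptors of myeloid cells, 0 passed by edgeR (0 higher and 3 lower at an unadjusted p under 0.05), 1 was lower by DESeq2 (Cd69), and the median was −0.15. The 2 with the largest differences were Clec4a2 at −1.95 (standard error 0.807, adjusted p = 0.231) and Clec4a3 at −1.31 (standard error 0.637, adjusted p = 0.310), receptor genes of the dectin-2 cluster. Without control mouse 1, they were −0.42 (standard error 0.459) and −0.48 (standard error 0.509). Another 14 of the 27 genes did not pass the filter, among them Cd209b to Cd209g and Cd207, and Clec4a4 had 0 reads in every mouse. Of these 13, 0 separated the diets upwards and 1 downwards, against 2.40% and 1.94% of all tested genes. The latter, named after its values were seen, was Clec4d, a receptor for mycobacterial glycolipids, at −0.91 (standard error 0.290, adjusted p = 0.138).

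Of 15 tested genes of the interleukin-4 response, the program to which Retnla and Mrc1 belong, 0 rose and 1 fell. This was Il6ra, a chain of the interleukin-6 receptor, with −0.91 (standard error 0.168, adjusted p = 0.0267 from edgeR). It had 86 to 160 reads on the control and 50 to 77 on the ketogenic diet. Alox15 had −0.91 (standard error 0.449, adjusted p = 0.317), and the median of the list was −0.07. Of 12 tested ligands and receptors that maintain or recruit these cells, 0 passed by edgeR (0 higher and 1 lower at an unadjusted p under 0.05), and 1 was lower by DESeq2. This was Tgfb1, the gene of a cytokine that macrophages need in several tissues, at −0.46 (standard error 0.134, adjusted p = 0.110 from edgeR). Their median was −0.18, and Cx3cr1, the fractalkine receptor, had −0.93 (standard error 0.837, adjusted p = 0.591) with 452 reads in control mouse 1 and 0.23 (standard error 0.725) without it.

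Of 13 tested pan-leukocyte genes, all had a negative value, with a median of −0.47, and 1 passed. Laptm5, a lysosomal membrane protein of blood cells, was lower on the ketogenic diet (log2 fold change −0.59, SE 0.123, edgeR adjusted p = 0.0415). Itgb2 had −0.85 (standard error 0.203, adjusted p = 0.0648) and Fcer1g had −0.92 (standard error 0.252, adjusted p = 0.0933). Of 12 tested lymphocyte genes, Cd79a, a chain of the B cell receptor, fell by 0.46 (standard error 0.0825, adjusted p = 0.0221 from edgeR), 0 rose, and the median was −0.14. The B cell gene Ms4a1 had −0.53 (standard error 0.155, adjusted p = 0.110). Without control mouse 1 and ketogenic mouse 4, 0 of the 3 list genes passed, at −0.77 for Il6ra, −0.53 for Laptm5 and −0.42 for Cd79a. The summed normalized count of the lymphocyte list was 3698 to 5096 on the control and 3181 to 3681 on the ketogenic diet, the opposite order to Mgl2, Cd209a and Retnla.

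Cardiomyocyte genes had mostly positive differences, as those members did. Of 12 tested cardiomyocyte genes, 11 had a positive value, with a median of 0.34, and 0 passed by edgeR, while 9 were higher and 0 lower at an unadjusted p under 0.05, and 6 were higher by DESeq2. Ttn, which encodes titin of the sarcomere, had 1.03 (standard error 0.242, adjusted p = 0.0605) and Actn2, the gene of an alpha-actinin, 0.83 (standard error 0.240, adjusted p = 0.106). Their summed normalized count was 7492 to 9662 on the control and 8910 to 12799 on the ketogenic diet, and was not led by a single mouse. With these genes as a covariate, the log2 fold change was 2.66 for Mgl2 (standard error 0.454), 1.79 for Cd209a (0.456) and 1.63 for Retnla (0.631). In that fit 5 of the 8 members had a positive value. Only ketogenic mouse 1 lay within the control range of the summed cardiomyocyte genes. Such a fit can hardly separate them from the diet, and nothing is read from it. Of 10 tested EC genes and 11 tested fibroblast, pericyte and smooth muscle genes, 0 passed by edgeR, with medians of −0.05 and −0.00. At an unadjusted p under 0.05 there were 1 higher and 1 lower EC gene, and 0 of the fibroblast and mural genes in either direction, and DESeq2 gave 0 in both lists. Kdr, the VEGF receptor of ECs, had 0.13 (standard error 0.0405, adjusted p = 0.125) and Egfl7 −0.11 (standard error 0.0496, adjusted p = 0.290), while Pdgfra had 0.31 (standard error 0.200, adjusted p = 0.444) and Col1a1 0.21 (standard error 0.129, adjusted p = 0.418).

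Upstream sequences of the 3 genes that separated the diets are shown from RefSeq (GRCm38.p6), for the bases before both the RefSeq and the GENCODE start of each gene. RefSeq gave a promoter for 9 of the 10 members. They were searched on both strands over 250 bases for letters bound by factors of myeloid cells: the STAT6 type (TTC and GAA held 4 bases apart), the PU.1 type GAGGAAGT, a PU.1 and IRF composite (GGAA and GAAA held 2 bases apart) and the C/EBP type TTGCNNAA. Matches are in capitals:
Mgl2, chr11:70130107-70130328, plus strand: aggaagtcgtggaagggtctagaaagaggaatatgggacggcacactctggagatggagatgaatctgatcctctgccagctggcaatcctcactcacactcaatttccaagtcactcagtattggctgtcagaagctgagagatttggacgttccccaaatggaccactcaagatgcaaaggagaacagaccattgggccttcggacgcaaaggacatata
Cd209a, chr8:3748985-3749234, minus strand: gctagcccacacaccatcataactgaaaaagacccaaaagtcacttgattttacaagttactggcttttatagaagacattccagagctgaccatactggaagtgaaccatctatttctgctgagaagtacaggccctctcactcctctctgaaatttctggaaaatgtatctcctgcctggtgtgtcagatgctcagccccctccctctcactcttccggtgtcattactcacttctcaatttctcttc
Retnla, chr16:48842359-48842550, plus strand: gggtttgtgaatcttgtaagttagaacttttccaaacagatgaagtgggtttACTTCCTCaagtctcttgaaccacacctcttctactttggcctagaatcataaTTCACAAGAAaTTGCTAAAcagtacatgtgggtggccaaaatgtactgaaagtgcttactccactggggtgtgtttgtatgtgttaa
Retnla held a PU.1 type match on the reverse strand, a STAT6 type match and a C/EBP type match, which begin 198, 145 and 134 bases before its RefSeq start and do not overlap. Itgax held a STAT6 type match and Folr2 a composite match, while these letters did not occur in the windows of Mgl2, Cd209a, Flt3, Ccr2, Mrc1 and Cbr2. Of all 32851 promoters of this length, 5.85% held the STAT6 type, 2.44% the PU.1 type, 2.3% the composite and 9.56% the C/EBP type. The 3 genes that separated the diets shared none of these letter patterns in these windows. At such shares a common pattern was unlikely beforehand, so nothing is read from this. The Mgl2 window begins with the PU.1 letters except the first G, so a match across that edge would be missed.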

How the data were processed

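RNA of CD31+ cardiac cells from 10 male mice, 5 per diet, was sequenced as 50-base single reads, 1 library per mouse. The authors deposited raw counts of reads per gene, not normalized, and RPKM values, the same reads per gene length and library size. The submitters' processing notes name STAR 2.3, HTSeq 0.6.0, bcl2fastq 2.17.1.14 and the build mm10. The annotation release and any removal of duplicate reads are not given in the sources used here. No gene exceeded 2.17 reads per base in any mouse, and the members reached at most 0.164. The highest gene stood at 2.04 to 2.17 reads per base in each of the 10 mice. Whether a ceiling compressed the values of abundant genes, EC genes included, was not tested.

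The members and gene lists were chosen with earlier results of these data known. Symbols and positions came from GENCODE M21 on GRCm38. Of 46983 identifiers, 37902 matched with the same version and 46488 without it, and Cd209a, Ccr2, Retnla and Folr2 matched without it. Flt3l was not matched and is not analysed here. Promoters came from RefSeq (GRCm38.p6).

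Counts of the 10 mice were normalized by TMM in edgeR 4.0.16 (R 4.3.3) and genes kept by filterByExpr, which left 15949 genes for its quasi-likelihood test, with p-values adjusted by the Benjamini-Hochberg method and a threshold of 0.05. Log2 CPM used a prior count of 2. Normalized counts are given as mean ± SD, and standard errors are the log2 fold change over the square root of F. Totals of 10885154 to 12710861 counted reads limit precision for genes with few reads. The mice of a diet are separate animals, so p-values measure the spread between mice. Genes named were the members, the list genes with an adjusted p under 0.05, the 2 of each list with the largest log2 fold change among genes with a mean of at least 20 reads, and the 5 genes most correlated with Mgl2, Clec10a and Mrc1. Pecam1, Cdh5, Clec9a, Clec4d, C1qb, Ptprc and genes named for DESeq2 alone were named after their values were seen. 1 gene that meets the rule is not reported here. Fits were tested on simulated data.

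The alternatives were DESeq2 size factors, upper quartile factors, library size alone, no filter, at least 10 reads in every mouse, the DESeq2 1.42.0 Wald test, limma 3.58.1 on log2(RPKM + 1) or log2(RPKM + 0.1), the replicate block, a pan-leukocyte or cardiomyocyte covariate, a prior count of 0.5, the dendritic cell genes without Ccr2 and Itgax, and each mouse left out in turn. The fit without control mouse 1 and ketogenic mouse 4 was added after seeing the data.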

Additional observations from a re-analysis of the deposited data

Results flagged for a closer look

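In each diet, the highest or lowest of the 5 mice was compared with its nearest neighbour, and its gap to it is given as a share of the diet's whole range. A gap above 0.71 was taken as large. Among 98 groups examined 15 had one. For independent, normally distributed values about 1 in 20, or 4.9, would be reached. These groups share the same mice, hold low counts and include list genes named for large differences, so 4.9 is not their chance rate.

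Of the members, Mrc1 was low in control mouse 2 (gap 0.972 of the range). Ketogenic mouse 4 was high for Ccr2 (0.911) and Itgax (0.727), for the monocyte gene Cd300e (0.744) and for the summed monocyte list (0.789). Flt3 was high in ketogenic mouse 2 (0.720).

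Control mouse 1 was high for Clec4a2 (0.872), Fcrls (0.830), Adgre1 (0.750) and Cx3cr1 (0.711), and for the summed resident macrophage list (0.797). Control mouse 3 was high for Cd300e (0.798) and for Actn2 (0.771), a gene of the cardiomyocyte sarcomere. Egfl7, an EC gene, was high in ketogenic mouse 2 (0.740), and Ms4a1, which encodes the B cell antigen CD20, was low in ketogenic mouse 5 (0.713).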

How the results depend on the processing

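Of 171 member values under other settings, 163 kept their direction within the replicate spread, 6 moved beyond it and 2 reversed, Itgax to −0.23 and Mrc1 to −0.53 with the cardiomyocyte covariate. The difference between dendritic cell and macrophage genes (1.34) was 1.23 to 1.502 when single mice were left out, and 0.43 on log2(RPKM + 1), a scale that compresses low values by construction. Positive members (7 of 8) numbered 2 of the 3 tested when every mouse needed 10 reads, and 7 whichever mouse was left out. The count of 213 genes became 795 with the DESeq2 Wald test, 38 with the pan-leukocyte and 43 with the cardiomyocyte covariate, 50 without control mouse 1 and ketogenic mouse 4 (chosen after seeing the data), and 86 to 493 with single mice left out. The 3 list genes became 6 without a filter, 21 with the Wald test, 0 with either covariate or without both mice, and 0 to 5 with single mice left out. The cause was not tested. Among 26 named list genes, direction reversed for Cd300e (0.21), Clec4a3 (0.39) and Cx3cr1 (0.97) with the pan-leukocyte covariate, for Pdgfra (−0.080) with the cardiomyocyte covariate, and with single mice left out for Cx3cr1 (−1.47 to 0.23, positive without control mouse 1) and Cd300e (−0.81 to 0.30, positive without control mouse 3). With the replicate block, 113 genes and 6 list genes passed. Same-numbered mice of the diets correlated in their deviations at −0.134 to 0.094 and 0 mice correlated best with their own number, so no pairing by number was seen. With 5 mice per diet these values cannot exclude a pairing, and the authors describe the control mice as littermates. Depth limits Clec10a and Flt3, with 0 to 26 reads per mouse, to large differences.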

Other observations

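Of 10 tested genes of neutrophils, eosinophils and mast cells, 0 passed by edgeR with an adjusted p under 0.05, with 3 higher and 1 lower at an unadjusted p under 0.05, 1 higher by DESeq2 (Mcpt4), and the median log2 fold change was −0.23. Mcpt4, a mast cell protease gene named after its values were seen, had 0 to 16 reads on the control and 12 to 62 on the ketogenic diet, at 2.60 (standard error 0.760, adjusted p = 0.109). Among genes with a mean of at least 20 reads, the largest differences were those of Cpa3, which encodes the mast cell carboxypeptidase, at 1.65 (standard error 0.523, adjusted p = 0.136), and of Cma1, which encodes a mast cell chymase, at 1.502 (standard error 0.502, adjusted p = 0.152). Cpa3 had 30, 1, 36, 47 and 17 reads in control mice 1 to 5 and 62, 69, 117, 132 and 56 reads in ketogenic mice 1 to 5. The 5 ketogenic mice lay above the highest control mouse, with ketogenic mouse 4 the highest, as for Mgl2. Cma1 had 13 to 115 reads on the control and 71 to 211 reads on the ketogenic diet, with overlap. Whether mast cell RNA and the member genes are linked was not tested.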
